A study of Mus musculus with 12 samples.

Results

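The semaphorins, their plexin receptors and the neuropilin co-receptors were followed as 1 gene family in RNA-seq read counts from sorted mouse cortical neurons. Members were taken by symbol: semaphorins of classes 3 to 7, plexins A to D and both neuropilins. The rule found 31 genes among the 23253 genes of the count table, namely 20 semaphorins, 9 plexins and 2 neuropilins, and all 31 passed the filter on low counts.

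The study asked about GDF10 in axonal sprouting and recovery after stroke and holds 12 libraries in 4 groups of 3. The stroke libraries (replicates 4, 5 and 6) came from adult C57BL/6 mice given a photothrombotic stroke, in which the dye Rose bengal was illuminated through the exposed skull for 15 min to make a focal lesion 2 mm across. The libraries labelled stroke + GDF10 siRNA (replicates 1, 2 and 3) came from adult mice with the same lesion and an siRNA against GDF10, as the source and condition labels say, and are called siRNA-labelled below. Their titles and the deposited comparison names give GDF10 without siRNA, so the direction of the treatment rests on those labels. The P4 libraries (replicates 4, 5 and 6) are labelled an animal control, and the labels do not spell out P4 and give all samples the same note of adult mice. The adult controls (replicates 1, 2 and 3) had no stroke and are labelled WT. The labels name no transgene, sex or time after stroke, and nothing in them says whether a library is 1 animal or a pool, so p-values measure the spread between these libraries, which may in part be technical.

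Semaphorins are guidance proteins that steer axons, dendrites and migrating cells. Class 3 proteins are secreted and mostly need a neuropilin to bind and an A plexin to signal, while classes 4 to 6 span the membrane, class 7 is held by a lipid anchor, and these mostly bind plexins directly. Plexins carry the signal into the cell through a GTPase-activating domain that acts on small G proteins and so on actin and adhesion. In the cortex these genes are best known from axon growth and pathfinding in development, and several of the membrane semaphorins are made by cells of the oligodendrocyte lineage.

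The libraries held 10517638 to 48633350 counts each, and Pearson's r of log2 CPM (a gene's count scaled to the effective size of its library) within a group ran from 0.681, between 2 adult controls, to 0.989. The ribosomal precursor RNA Rn45s took 2.11 to 2.44% of counts in the stroke libraries and 2.72% and 2.08% in siRNA-labelled replicate 3 and adult control 2, against 0.00984 to 0.427% in the other 7. The targeted gene Gdf10 had 8, 7 and 1 counts under the siRNA label, against 0, 5 and 0 in stroke libraries, too few to check the siRNA label, and 189, 241 and 33 in P4 against 15, 21 and 0 in the adult controls. Although all libraries are labelled sorted neurons, 12 oligodendrocyte markers took 5.98% of counts in stroke, 9.04% in siRNA-labelled, 0.0206% in P4 and 5.87% in adult control libraries. The 12 neuronal markers took 0.179% in stroke, 0.226% in siRNA-labelled, 0.735% in P4 and 0.443% in adult control libraries. In such bulk counts fewer cells of a type and less RNA per cell cannot be told apart. The stroke and P4 titles carry the numbers 4 to 6 and the others 1 to 3, and if those numbers mark separate runs, run and group cannot be told apart.

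Together the 31 genes took 0.437%, 0.459% and 0.473% of all counts in the stroke libraries, and 0.302%, 0.268% and 0.285% under the siRNA label. They took 0.295%, 0.307% and 0.213% in P4 libraries, against 0.241%, 0.324% and 0.249% in adult controls. The 3 stroke libraries lay above all 9 others, and the other groups overlapped. Class 5 semaphorins alone took 0.131% ± 0.0262 of counts in stroke libraries, 0.0516% ± 0.0151 in siRNA-labelled libraries, 0.0188% ± 0.0123 in P4 and 0.0320% ± 0.00500 in adult controls (SD, n = 3 each).

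Per kilobase of annotated exon, the order of levels set P4 apart from the adult groups. In stroke libraries the highest were Sema6d at 127 ± 29.1, Sema6a at 112 ± 14.4 and Sema5a at 112 ± 17.8 CPM per kb (SD, n = 3), 3 membrane semaphorins whose ranges overlapped. Plxnb3 followed at 82.2 ± 11.2 CPM per kb. In siRNA-labelled libraries Sema6a at 104 ± 26.7 and Sema6d at 90.0 ± 1.13 CPM per kb were highest, with overlapping ranges. In P4 libraries the top 4 were Plxna4 at 40.1 ± 9.56, Plxna2 at 31.6 ± 6.80, Sema7a at 29.8 ± 11.7 and Plxna1 at 28 ± 13.6 CPM per kb, neighbours that did not separate beyond their spread. In adult controls Sema6d at 98.4 ± 14.3 and Sema6a at 88.7 ± 39.1 CPM per kb led, and Plxnb3 and Sema5a came next at 26.2 ± 21.9 and 25.9 ± 7.71 CPM per kb.

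**Figure D1:**
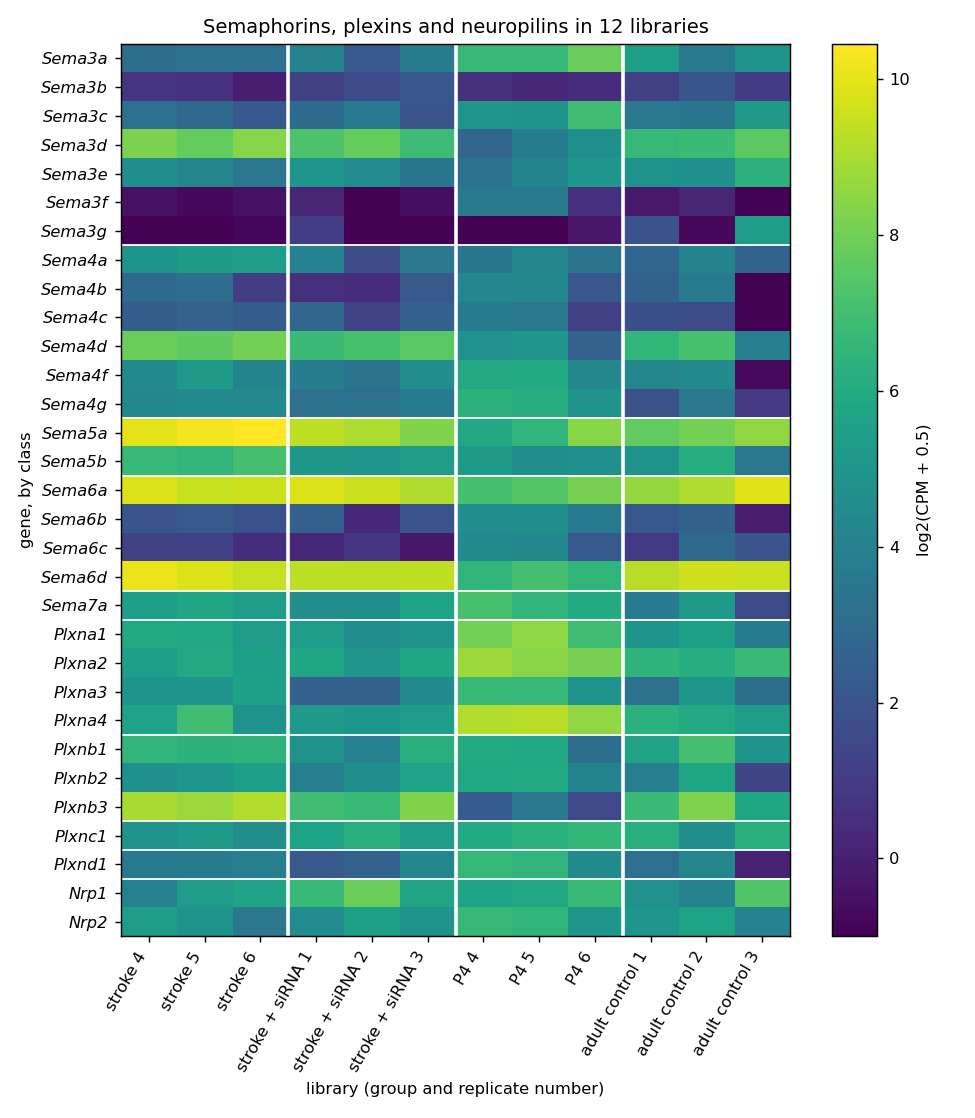
Levels of the 31 genes (rows, by class) in the 12 libraries (columns, by group), as log2(CPM + 0.5), brighter for higher levels. Plxna1, Plxna2 and Plxna4 are brighter in the 3 P4 columns than in the adult columns, and Plxna3 is so in P4 4 and P4 5 only. Plxnb3, Sema3d, Sema6a and Sema6d are darker in the 3 P4 columns than in the adult columns.

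The 6 members with the smallest p between P4 libraries and adult controls were Sema6d, Plxnb3 and Sema3d, lower in P4, and Plxna4, Plxna1 and Plxna2, higher in P4. In edgeR's quasi-likelihood test, adjusted by Benjamini-Hochberg over 17909 genes, 13 of 31 genes passed an adjusted p of 0.05, against 16.8% of all genes tested. Of these 9 were higher in P4, or 29% of members against 6.32% of all genes, and 4 were lower, or 12.9% against 10.4%. The 2 groups did not overlap for 14 of 31 members (45.2%), against 32.1% of all genes. The median log2 fold change was 1.20 over the members and -0.16 over all genes tested, and 20 of 31 members lay above 0 against 45.7% of all genes.

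All 4 A plexins, the signalling receptors of neuropilin-bound class 3 and of class 6 semaphorins, were higher in P4. Plxna1 had 270, 367 and 123 CPM in P4 libraries, against 29.98, 45.5 and 13.2 CPM in adult controls. Plxna2 had 427, 343 and 277 CPM in P4, against 85.9, 68.8 and 108 CPM in adult controls. Plxna4, a receptor for Sema3a and for Sema6a, had 570, 603 and 375 CPM in P4, against 79.2, 59.1 and 39.7 CPM in adult controls. For these 3 genes every P4 library lay above every adult control. The log2 fold changes were 3.09 (SE 0.50) for Plxna1, 2.00 (SE 0.34) for Plxna2 and 3.12 (SE 0.48) for Plxna4, with edgeR adjusted p of 0.000530, 0.000743 and 0.000351.

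Plxna3, on chromosome X, had 107, 99.3 and 29.2 CPM in P4, against 8.88, 33.2 and 8.21 CPM in adult controls, so that P4 replicate 6 fell under adult control 2. Its log2 fold change was 2.22 (SE 0.71, edgeR adjusted p = 0.0442), and the call was lost without P4 4, P4 5, adult control 1 or adult control 3 (adjusted p = 0.147, 0.127, 0.146 and 0.105). Xist, transcribed from the inactive X, was at 2045 to 3649 CPM in P4 libraries against 3.23 to 193 CPM in adult controls. The Y chromosome's Ddx3y had 0.0562, 33.5 and 148 CPM in P4 libraries, against 190, 109 and 474 CPM in adult controls. The part of these differences in those of Plxna3 and of Plxnb3, which is also X-linked and was lower in P4, was not tested. Plxnd1, the receptor that Sema3e binds without a neuropilin, had 99.4, 88.5 and 21.0 CPM in P4, against 8.53, 17.8 and 0.570 CPM in adult controls. These groups did not overlap (log2 fold change 2.94, SE 0.91, edgeR adjusted p = 0.0374), though the call was lost without P4 4, P4 5 or adult control 1 (0.121, 0.101 and 0.107).

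Plxnb3, the plexin that binds Sema5a and is known from oligodendrocytes, was lower in P4. It had 4.42, 11.4 and 2.41 CPM in P4 libraries, against 112, 307 and 54.8 CPM in adult controls, with a wide gap between the groups. The log2 fold change was -4.69 (SE 0.72, edgeR adjusted p = 0.000345). The other B plexins and Plxnc1, the Sema7a receptor, were not called: Plxnb1 lay at 8.24 to 62.1 CPM in P4 and 29.5 to 133 CPM in adult controls, Plxnb2 at 17.5 to 61.5 CPM in P4 and 2.17 to 52.3 CPM in adult controls, and Plxnc1 at 64.4 to 95.3 CPM in P4 and 25.6 to 76.1 CPM in adult controls. All 3 pairs of ranges overlapped. The neuropilins were not called either. Nrp1, the co-receptor of Sema3a, had 48.8, 58.5 and 104 CPM in P4 and 27.6, 16.7 and 161 CPM in adult controls (log2 fold change 0.05, 95% interval -1.52 to 1.62), and Nrp2, that of Sema3f, had 33.4 to 101 CPM in P4 and 16.7 to 48.9 CPM in adult controls.

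Promoter sequences from RefSeq (GRCm38.p6, 250 bases before to 50 after the start) were matched for 26 of the 31 genes. They are shown for a pair of plexins higher in P4 and for a plexin and a ligand lower in P4, to show how often the dinucleotide CG occurs in each. The 7 matched genes higher in P4 had a median of 23 CG per promoter (range 2 to 30), and 4 of them lay above 21, the 75th percentile of 27025 promoters of the same length. Over the 26 members that percentile was 26.75. Members not called in P4 ran from 2 CG in Sema4d to 42 in Sema3c, with 37 in Nrp2 and 3 in Sema6c. Both called directions lay inside that range. Sema3a and Sema6b, also higher in P4 but not shown, held 2 and 6 CG. The 3 matched genes lower in P4 had a median of 6 (range 4 to 8), with none above 21, and the medians were 18.5 over the 26 members and 7 over all promoters. The difference was not tested, and the start used for Sema3a lay 2525 bases and that for Sema6d 43008 bases from the nearest GENCODE start. Plxna2 (chr1:194619579-194619878, plus strand) held 25 CG, Plxnd1 (chr6:115994956-115995255, minus strand) 23, Plxnb3 (chrX:73756853-73757152, plus strand) 4 and Sema3d (chr5:12382916-12383215, plus strand, 219 bases from the nearest GENCODE start) 8. Each is written 5′ to 3′ with every CG in capitals.
Plxna2: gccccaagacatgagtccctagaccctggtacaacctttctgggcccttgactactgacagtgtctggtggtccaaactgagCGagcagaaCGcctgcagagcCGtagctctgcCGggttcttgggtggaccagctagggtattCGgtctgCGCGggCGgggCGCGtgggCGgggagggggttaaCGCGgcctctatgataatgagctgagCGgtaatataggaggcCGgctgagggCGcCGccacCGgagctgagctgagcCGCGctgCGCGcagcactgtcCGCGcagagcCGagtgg
Plxnd1: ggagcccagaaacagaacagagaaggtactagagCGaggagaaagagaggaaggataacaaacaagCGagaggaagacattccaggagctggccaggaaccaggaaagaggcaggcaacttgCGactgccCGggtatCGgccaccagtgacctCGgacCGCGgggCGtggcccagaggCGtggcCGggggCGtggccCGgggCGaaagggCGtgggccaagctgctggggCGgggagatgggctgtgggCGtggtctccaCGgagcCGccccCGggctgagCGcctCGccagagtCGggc
Plxnb3: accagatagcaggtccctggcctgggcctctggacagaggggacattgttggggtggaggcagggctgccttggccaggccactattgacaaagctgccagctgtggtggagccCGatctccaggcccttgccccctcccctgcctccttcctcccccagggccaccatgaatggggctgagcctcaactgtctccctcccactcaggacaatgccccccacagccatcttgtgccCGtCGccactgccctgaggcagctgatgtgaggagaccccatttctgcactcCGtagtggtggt
Sema3d: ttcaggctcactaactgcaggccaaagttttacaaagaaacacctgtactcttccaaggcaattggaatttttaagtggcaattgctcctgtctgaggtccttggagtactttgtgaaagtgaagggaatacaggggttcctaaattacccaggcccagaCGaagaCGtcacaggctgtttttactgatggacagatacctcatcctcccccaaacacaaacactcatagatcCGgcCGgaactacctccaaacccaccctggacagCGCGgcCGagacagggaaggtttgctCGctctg
The letters ACAATG, a core of SOX factor motifs, were searched on both strands. They occurred at 2 places in the Plxnb3 promoter above and in 11.5% of member promoters, against 12.8% of all 27025.

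Among the ligands, secreted Sema3a and Sema3d, which lie on the same chromosome, differed from adult controls in opposite directions. Sema3a, a repellent of cortical axons, had 101, 99.0 and 226 CPM in P4 libraries, against 43.1, 11.8 and 28.2 CPM in adult controls (log2 fold change 2.36, SE 0.58, edgeR adjusted p = 0.0109). Sema3d had 6.14, 14.1 and 26.6 CPM in P4, against 99.1, 112 and 190 CPM in adult controls (-3.10, SE 0.49, edgeR adjusted p = 0.000459). Neither pair of groups overlapped. Sema3f, the Nrp2 ligand, had 12, 11.7 and 0.951 CPM in P4 and 0.357, 0.671 and 0 CPM in adult controls, and narrowly missed the threshold (edgeR adjusted p = 0.0585). Sema3g was at 0, 0 and 0.317 CPM in P4 and at 3.25, 0.0994 and 40.0 CPM in adult controls, with adult control 3 holding most of its reads (edgeR adjusted p = 0.0600).

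Of the membrane ligands, Sema6d and Sema6a were lower in P4. Sema6d, known as a ligand of Plxna1, had 89.5, 135 and 89.1 CPM in P4, against 591, 786 and 744 CPM in adult controls (log2 fold change -2.76, SE 0.30, edgeR adjusted p = 1.57e-05). Sema6a, a ligand of Plxna2 and Plxna4, had 136, 169 and 271 CPM in P4, against 403, 552 and 941 CPM in adult controls (-1.72, SE 0.37, edgeR adjusted p = 0.00458). The groups did not overlap for either gene. Sema4d had 27.5, 31.3 and 5.58 CPM in P4, against 94.3, 140 and 14.8 CPM in adult controls, with overlap. It narrowly missed the threshold on the lower side (-1.95, SE 0.67, edgeR adjusted p = 0.0588).

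The remaining called ligands were higher in P4. Sema4g, a class 4 membrane semaphorin, had 81.2, 68.8 and 27.8 CPM in P4, against 3.13, 11.6 and 1.37 CPM in adult controls (log2 fold change 3.45, SE 0.69, edgeR adjusted p = 0.00280). Sema6b had 24.3, 25.8 and 13.3 CPM in P4, against 3.89, 5.39 and 0.456 CPM in adult controls (2.68, SE 0.86, edgeR adjusted p = 0.0456). Sema7a, the lipid-anchored ligand of Plxnc1 and of integrins, had 139, 92.8 and 62.8 CPM in P4, against 13.0, 35.8 and 2.51 CPM in adult controls (2.51, SE 0.68, edgeR adjusted p = 0.0193). No P4 library lay under an adult control for these 3 genes. Of the 6 edgeR fits that left out 1 library, the Sema6b call passed only in the one without adult control 2 (adjusted p = 0.0530 to 0.143 in the other 5), and the Sema7a call was lost without P4 4 or adult control 1 (adjusted p = 0.0764 and 0.0753). The other 9 calls, Plxna1, Plxna2, Plxna4, Plxnb3, Sema3a, Sema3d, Sema4g, Sema6a and Sema6d, passed in all 6 such fits.

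**Figure D2:**
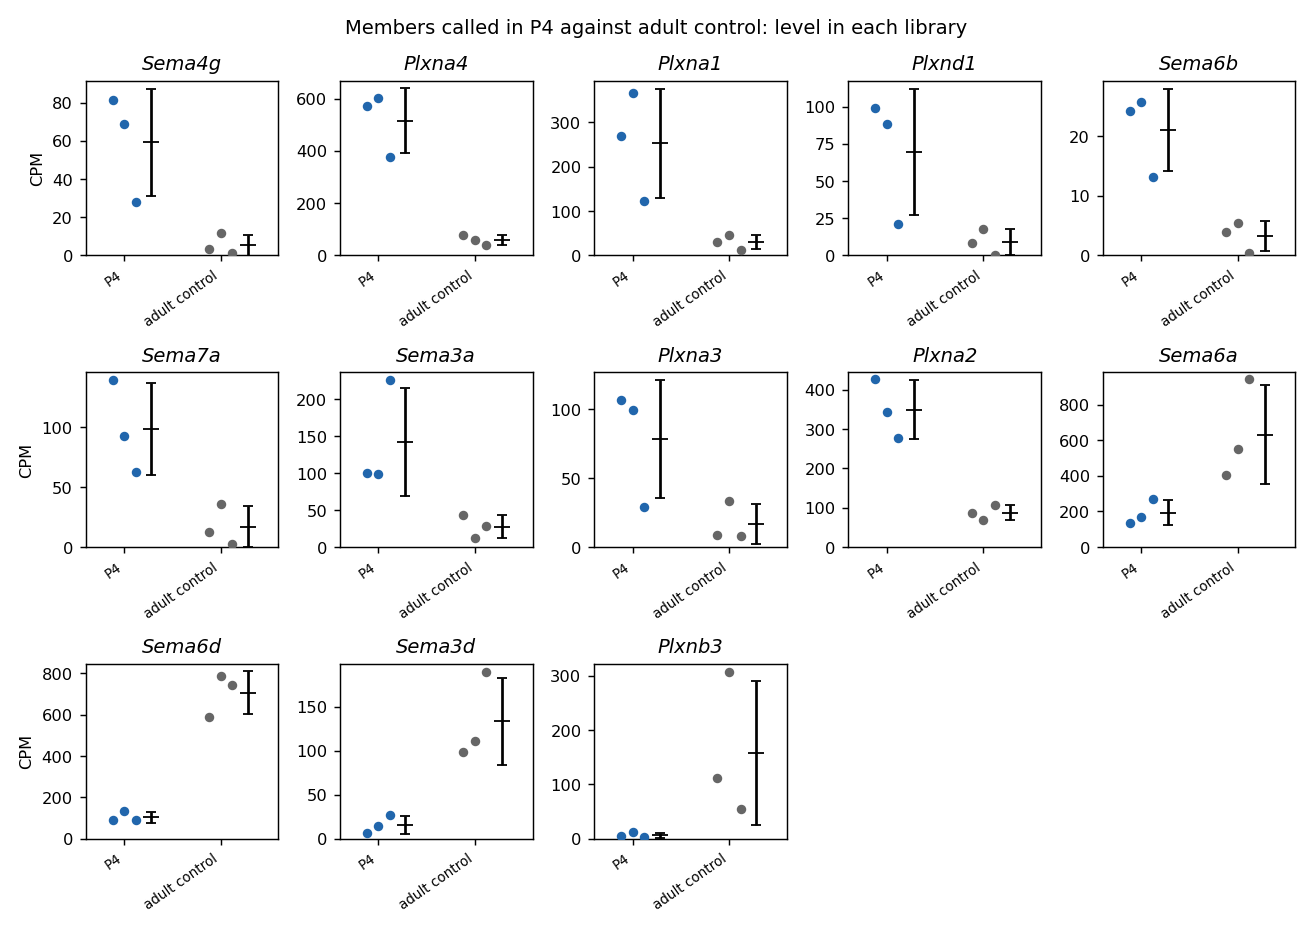
CPM of the 13 genes called between P4 and adult control libraries, 1 point per library with the mean and SD beside it (axes start at 0). The first 9 panels are genes higher in P4 and the last 4 genes lower in P4, and points of the groups overlap for Plxna3 alone.

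Glial markers moved with these differences. In P4 against adult controls, 12 of 12 oligodendrocyte markers were called lower in edgeR (summed share 0.0118 to 0.0317% of counts in P4, against 3.93 to 9.44% in adult controls), as were 8 of 8 precursor markers (0.0180 to 0.0367% in P4, against 0.101 to 0.438% in adult controls). Lower calls were also made for 11 of 12 microglia markers (0.00243 to 0.00407% in P4, against 0.0758 to 0.128% in adult controls) and 7 of 10 astrocyte markers (0.0368 to 0.0620% in P4, against 0.420 to 0.633% in adult controls). Of 12 neuronal markers 4 were called higher (0.599 to 0.936% in P4, against 0.213 to 0.631% in adult controls). No marker on these lists was at 0 in all 3 libraries of either group. Their part in the differences of the called members, those higher in P4 as well as those lower, was not tested.

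No member passed the adjusted threshold between stroke libraries and adult controls, and the member nearest to it was the ligand Sema5a, with a mean of 1214 ± 193 CPM over stroke libraries, against 280 ± 83.4 CPM over adult controls (SD, n = 3 each). The count was 0 of 31 in edgeR's quasi-likelihood test, against 0.704% of all genes. At an unadjusted p under 0.05 it was 14 of 31 (45.2%), against 15.9% of all genes, and the groups did not overlap for 15 of 31 (48.4%), against 20% of all genes. DESeq2 called 5 (Sema3a, Sema4a, Sema4g, Sema5a and Sema5b), with 7.86% of all genes called, and without adult control 2, the adult control with a high Rn45s share, edgeR called 5 (Plxnb3, Sema3g, Sema4g, Sema5b and Sema7a) among 548 of 18765 genes. Of the class 3 genes 6 of 7 had negative fold changes (median log2 -1.38), and of class 4 genes 5 of 6 and both class 5 genes had positive ones, against a median of -0.08 over all genes. Over all members 19 of 31 lay above 0, against 47.1% of all genes. Cell type markers moved in the same comparison. Of 10 astrocyte markers 5 were lower in stroke (median log2 fold change -2.17), at 0.0616 to 0.0887% of counts in stroke and 0.42 to 0.633% in adult control libraries. Of 12 oligodendrocyte markers 1 was higher (median 0.46). None was called of 8 oligodendrocyte precursor markers (median 1.16), which took 0.42 to 0.583% of counts in stroke libraries and 0.101 to 0.438% in adult controls, of 12 neuronal markers (median -0.83) or of 12 microglial ones (median -0.23). Nor was any called of 8 mural markers (median -3.85) or 9 endothelial ones (median -1.05), each list at 0.0288% of counts or less in these libraries. The part of these markers in the members' differences was not tested.

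Sema5a, a membrane semaphorin with thrombospondin repeats known from rat oligodendrocytes as an inhibitor of axon growth, had the smallest p of the members. It had 1019, 1218 and 1404 CPM in stroke libraries, against 206, 263 and 370 CPM in adult controls. The lowest stroke library was well above the highest control. The log2 fold change was 2.12 (SE 0.54, 95% interval 0.97 to 3.26), with an edgeR adjusted p of 0.0931. Sema5b, a close relative of Sema5a, had 100.3, 91.3 and 133 CPM in stroke, against 28.3, 69.1 and 11.06 CPM in adult controls (1.57, SE 0.51, edgeR adjusted p = 0.173). Adult control 2, whose Rn45s share was like that of stroke libraries, was the highest control for Sema5b, and adult control 3 for Sema5a. The part of the Rn45s share in either difference was not tested.

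Further members separated the groups, among them the ligands Sema4a, Sema4d and Sema4g and the receptor Plxnb3. Sema4a, a class 4 ligand known from immune cells, had 29.5, 37.4 and 41.4 CPM in stroke, against 6.27, 16.7 and 5.82 CPM in adult controls (log2 fold change 1.9, SE 0.64, edgeR adjusted p = 0.185). Sema4d, the Plxnb1 ligand, had 237, 201 and 264 CPM in stroke, against 94.3, 140 and 14.8 CPM in adult controls (1.49, SE 0.66, edgeR adjusted p = 0.290). Plxnb3 had 504, 424 and 559 CPM in stroke, against the 112, 307 and 54.8 CPM of adult controls given above (1.65, SE 0.63, edgeR adjusted p = 0.231). In all 3 genes stroke was above adult control throughout, and adult control 2 was the highest control. The same held for Sema4g, with 19.0, 21.0 and 20.7 CPM in stroke and 3.13, 11.6 and 1.37 CPM in adult controls (1.9, SE 0.65, edgeR adjusted p = 0.189).

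Among the secreted ligands Sema3d was the exception to the negative fold changes, with 294, 212 and 328 CPM in stroke, against 99.1, 112 and 190 CPM in adult controls, without overlap (log2 fold change 1.06, SE 0.46, edgeR adjusted p = 0.284). Class 3 genes together took 0.0305% ± 0.00523 of counts in stroke and 0.0239% ± 0.0068 in adult control libraries (SD, n = 3 each). Sema3a had 8.25, 8.49 and 8.69 CPM in stroke, below the 43.1, 11.8 and 28.2 CPM of adult controls (log2 fold change -1.71, SE 0.57, edgeR adjusted p = 0.181). Sema3c had 8.63, 7.11 and 3.96 CPM in stroke, against 11.5, 10.6 and 36.7 CPM in adult controls (-1.57, SE 0.69, edgeR adjusted p = 0.289). Stroke was lower throughout in both genes. Sema3g, known from blood vessel endothelium, had 1 count in the 3 stroke libraries together and 437 in the adult controls, a ratio of adult control over stroke of 463 (95% counting interval 82.6 to 18320), but adult control 3 held 351 of the 437. The receptor Plxna2 had 43.2, 60.03 and 43.3 CPM in stroke, against 85.9, 68.8 and 108 CPM in adult controls, without overlap (-0.84, SE 0.33, edgeR adjusted p = 0.236). Plxna1, Plxna3 and Plxna4 overlapped between stroke and adult control libraries.

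**Figure D3:**
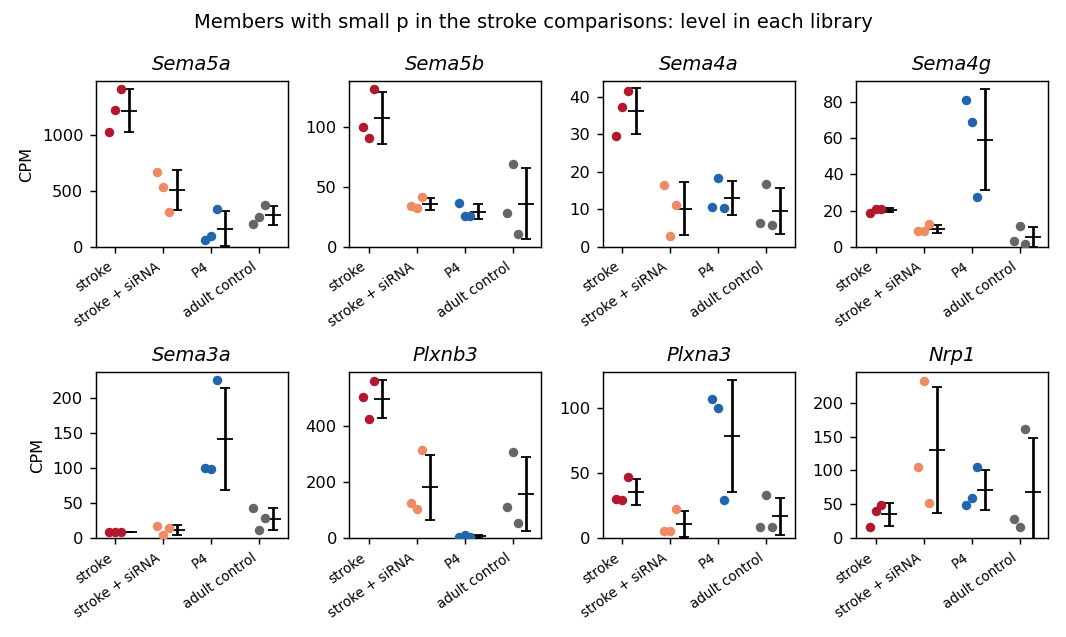
CPM of 8 members with small p in the stroke comparisons, 1 point per library in each of the 4 groups, with the mean and SD beside the points (axes start at 0 and cut bars there). Sema5a lies at 1019 to 1404 CPM in stroke, 312 to 667 in siRNA-labelled, 58.7 to 339 in P4 and 206 to 370 in adult control libraries.

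No member passed between siRNA-labelled and stroke libraries, and the smallest p was that of Sema5b, at 36.0 ± 4.78 CPM in siRNA-labelled and 108 ± 21.7 CPM in stroke libraries (SD, n = 3 each). The count was 0 of 31 in edgeR, against 0.00558% of all genes, which is 1 gene, and 0 of 31 in DESeq2, against 1.18% of all genes. At an unadjusted p under 0.05 it was 6 of 31 (19.4%), against 7.37% of all genes, and the groups did not overlap for 12 of 31 (38.7%), against 15.9%. All 6 class 4, both class 5, all 4 class 6 and all 4 A plexin genes had negative fold changes, and 6 of 7 class 3 genes and both neuropilins had positive ones. Over all members 9 of 31 lay above 0, against 51.7% of all genes. Several of these fold changes were smaller than their SE, such as Plxna2 at -0.1 (SE 0.33), Sema6a at -0.12 (SE 0.36) and Sema3c at 0.22 (SE 0.68). No cell type marker was called. Over 8 oligodendrocyte precursor markers the median log2 fold change was -0.98, and they took 0.176 to 0.317% of counts in siRNA-labelled libraries, against 0.42 to 0.583% in stroke libraries. Over 12 microglial markers it was 1.71, and they took 0.211 to 0.416% in siRNA-labelled libraries, against 0.0449 to 0.15% in stroke libraries. Over 8 mural markers it was 2.5 and over 9 endothelial markers 1.43, with each list at 0.0099% of counts or less in these libraries. Their part in the members' values was not tested.

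Sema5b had 34.4, 32.2 and 41.4 CPM in siRNA-labelled libraries, against 100.3, 91.3 and 133 CPM in stroke libraries (log2 fold change -1.59, SE 0.51, edgeR adjusted p = 0.574). Sema5a had 667, 532 and 312 CPM in siRNA-labelled libraries, against 1019, 1218 and 1404 CPM in stroke libraries (-1.27, SE 0.52, edgeR adjusted p = 0.637). Both were lower throughout. Nrp1 had 105, 233 and 51.8 CPM in siRNA-labelled libraries, against 16.0, 40.0 and 48.8 CPM in stroke libraries (1.9, SE 0.76, edgeR adjusted p = 0.627), with siRNA-labelled replicate 3 only just above the highest stroke library. Sema4a had 16.6, 2.78 and 11.2 CPM in siRNA-labelled libraries, below the 29.5, 37.4 and 41.4 CPM of stroke libraries (-1.82, SE 0.64, edgeR adjusted p = 0.594). Plxna3 had 5.26, 5.27 and 22.0 CPM in siRNA-labelled libraries, against 29.8, 29.2 and 46.8 CPM in stroke libraries, with no overlap (-1.70, SE 0.70, edgeR adjusted p = 0.637).

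Between siRNA-labelled libraries and adult controls the member with the smallest p was the receptor Plxna2, at 45.5 ± 12.5 CPM in siRNA-labelled and 87.6 ± 19.6 CPM in adult control libraries (SD, n = 3 each). The edgeR count was 0 of 31, against 0.117% of all genes, and the DESeq2 count was 0, against 2.09% of all genes. At an unadjusted p under 0.05 it was 4 of 31 (12.9%), against 8.36% of all genes, and only Plxna2 and Sema6c did not overlap (6.45% of members, against 10.8% of all genes). Plxna2 had 52.1, 31.2 and 53.3 CPM in siRNA-labelled libraries, below the 85.9, 68.8 and 108 CPM of adult controls (log2 fold change -0.94, SE 0.33, edgeR adjusted p = 0.447). Sema6c had 0.743, 1.22 and 0.347 CPM in siRNA-labelled libraries, against 1.43, 7.38 and 3.54 CPM in adult controls (-2.43, SE 0.88, edgeR adjusted p = 0.456). Sema5a, with 667, 532 and 312 CPM in siRNA-labelled libraries and 206, 263 and 370 CPM in adult controls, overlapped (0.85, 95% interval -0.26 to 1.95). This comparison shares its libraries with those above, and the values are given side by side without a test of the overlap. Of 10 astrocyte markers 2 were called lower in it (median log2 fold change -2.36). They took 0.0805 to 0.146% of counts in siRNA-labelled and 0.42 to 0.633% in adult control libraries. None was called of 12 microglial markers (median 1.63), at 0.211 to 0.416% and 0.0758 to 0.128%, or on the other lists (medians -0.9 to 0.56). The part of these markers in the members' values was not tested.

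**Figure D4:**
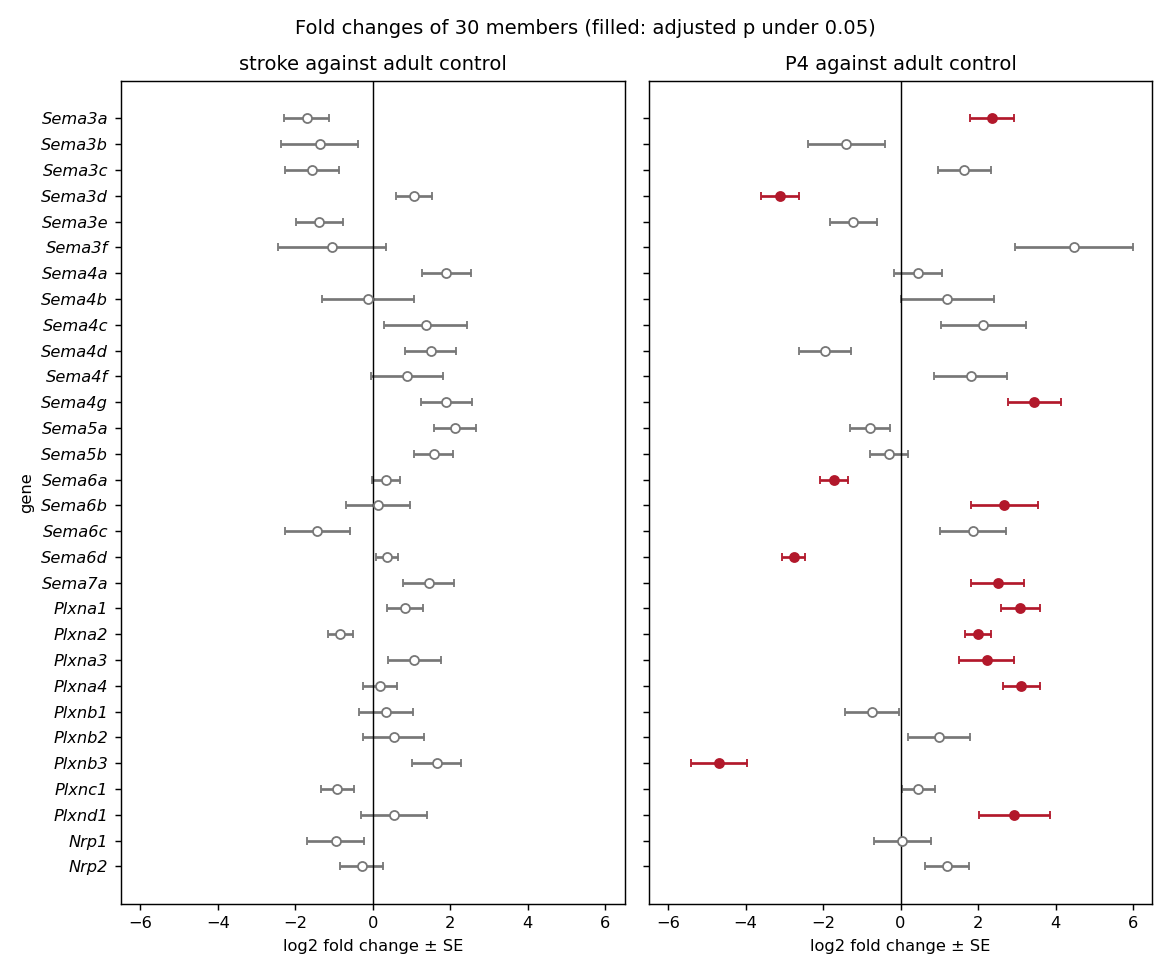
Log2 fold changes ± SE of 30 members (Sema3g, nearly without counts in stroke, is left out) in stroke and in P4 libraries, each against adult controls, filled red where the edgeR adjusted p is under 0.05. The left panel has no filled point and the right panel has 13.

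Stroke libraries had more Sema6d, Sema6a, Plxnb3, Sema3d, Sema4d and class 5 semaphorin RNA than P4 libraries. They had less RNA of 3 A plexins and of 3 class 3 semaphorins, and some of these calls were less firm, as given below. In edgeR 15 of 31 members passed, against 18.8% of all genes, 7 higher in stroke (22.6%, against 10.8%) and 8 lower (25.8%, against 7.94%), and the groups did not overlap for 22 of 31 (71%), against 44.4% of all genes. Since the P4 libraries also enter the comparison with adult controls, the fold changes are not independent of those above. Plxnb3 had 504, 424 and 559 CPM in stroke libraries, against 4.42, 11.4 and 2.41 CPM in P4 (log2 fold change 6.34, SE 0.78, edgeR adjusted p = 3.67e-05). Sema5a, which did not differ past the threshold between P4 and adult controls, had 1019, 1218 and 1404 CPM in stroke, against 58.7, 92.8 and 339 CPM in P4 (2.89, SE 0.55, edgeR adjusted p = 0.00153). Neither gene's groups overlapped.

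The other calls higher in stroke were Sema3d, Sema4d, Sema5b, Sema6a and Sema6d. Sema4d had 237, 201 and 264 CPM in stroke, against 27.5, 31.3 and 5.58 CPM in P4 (log2 fold change 3.44, SE 0.71, edgeR adjusted p = 0.00270). Sema6d had 1116, 919 and 698 CPM in stroke, against 89.5, 135 and 89.1 CPM in P4 (3.12, SE 0.31, edgeR adjusted p = 4.33e-06). Sema6a had 918, 727 and 756 CPM in stroke, against 136, 169 and 271 CPM in P4 (2.06, SE 0.37, edgeR adjusted p = 0.00104). Sema3d had 294, 212 and 328 CPM in stroke, against 6.14, 14.1 and 26.6 CPM in P4, and no stroke library of these genes came near a P4 library.

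The genes lower in stroke than in P4 were the A plexins Plxna1, Plxna2 and Plxna4, Plxnc1, and the ligands Sema3a, Sema3c, Sema3f and Sema6c. Plxna1 had 62.2, 57.6 and 38.3 CPM in stroke, against 270, 367 and 123 CPM in P4 (log2 fold change -2.26, SE 0.48, edgeR adjusted p = 0.00362). Plxna4 had 48.9, 123 and 29.4 CPM in stroke, against 570, 603 and 375 CPM in P4 (-2.94, SE 0.48, edgeR adjusted p = 0.000429). Sema3a had 8.25, 8.49 and 8.69 CPM in stroke, against 101, 99.0 and 226 CPM in P4 (-4.06, SE 0.62, edgeR adjusted p = 0.000263). Stroke was lower throughout in these 3 genes. Sema3c had 8.63, 7.11 and 3.96 CPM in stroke and 31.6, 29.8 and 123 CPM in P4 (-3.22, SE 0.73, edgeR adjusted p = 0.00547). Plxna2 fell by 2.84 on the log2 scale (SE 0.35), to 43.2, 60.03 and 43.3 CPM in stroke.

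Plxnc1, Sema3f, Sema5b and Sema6c were called less firmly. Plxnc1 had 29.5, 36.7 and 24.9 CPM in stroke, against 64.4, 78.4 and 95.3 CPM in P4, and its edgeR adjusted p of 0.0357 was 0.0565 to 0.139 in all 6 fits that left out 1 library. Sema3f had 0.207, 0.0961 and 0.217 CPM in stroke, against 12, 11.7 and 0.951 CPM in P4, and its edgeR adjusted p of 0.0254 held only without P4 6. Sema6c had 1.899, 1.76 and 0.923 CPM in stroke, against 21.0, 19.7 and 4.18 CPM in P4, and its edgeR adjusted p of 0.0174 held only without stroke 4 or P4 6. Sema5b had 36.7, 25.5 and 26.2 CPM in P4, under the 91.3 to 133 CPM of stroke, and its edgeR adjusted p of 0.0184 held only without stroke 5 or P4 4. The ranges over the 6 fits were 0.0189 to 0.102 for Sema3f, 0.0104 to 0.0929 for Sema6c and 0.0379 to 0.0768 for Sema5b, and each of the 4 genes had its groups apart. Oligodendrocyte (12 of 12), precursor (8 of 8) and microglia (12 of 12) markers were called higher in stroke than in P4, and 8 of 12 neuronal markers lower. Their part was not tested.

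Intracellular partners of plexins were read from a list of 28 effectors, 27 of which were tested. In stroke against adult controls 1 of 27 was called (0.704% of all genes), Fyn, the Src-family kinase downstream of Sema3a, with 919 ± 353 CPM in stroke libraries, against 171 ± 42.9 CPM in adult controls (SD, n = 3 each, log2 fold change 2.42, SE 0.34, edgeR adjusted p = 0.00435). None was called in the siRNA-labelled comparisons. In P4 against adult controls 5 were higher and 4 lower (9 of 27, against 16.8% of all genes), with a median log2 fold change of 0.42, against -0.16 over all genes. The higher ones included the collapsin response mediators Crmp1 (1108 ± 580 CPM in P4 and 24.6 ± 6.59 CPM in adult controls, edgeR adjusted p = 5.05e-05) and Dpysl3 (2682 ± 788 CPM in P4 and 88.0 ± 38.0 CPM in adult controls, edgeR adjusted p = 1.27e-06), and the lower ones Rras, a small G protein that plexins inactivate (0.375 ± 0.118 CPM in P4 and 10.9 ± 12 CPM in adult controls, edgeR adjusted p = 0.00317). In stroke against P4 6 were higher and 6 lower (12 of 27, against 18.8% of all genes).

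A second list held 15 co-receptors and other ligands, all tested. In P4 against adult controls 4 were higher and 3 lower (7 of 15, against 16.8% of all genes). L1cam, the adhesion molecule that joins Nrp1 in the Sema3a receptor, had 774 ± 225 CPM in P4 and 57.2 ± 12.7 CPM in adult controls (log2 fold change 3.76, SE 0.38, edgeR adjusted p = 7.84e-06). Met, a receptor kinase that pairs with B plexins, had 256 ± 74.3 CPM in P4 and 10.8 ± 5.3 CPM in adult controls (4.57, SE 0.46, edgeR adjusted p = 8.60e-06). Itgb1, the integrin subunit that Sema7a binds, had 63.6 ± 22.5 CPM in P4 and 154 ± 12.8 CPM in adult controls (-1.27, SE 0.32, edgeR adjusted p = 0.0116), and the microglial pair Trem2 and Tyrobp was also lower in P4 (-5.85 and -4.11). In stroke against P4 3 were higher (Itgb1, Trem2 and Tyrobp) and 4 lower (18.8% of all genes), and none was called between adult groups.

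Levels of many members moved with the base composition of their transcripts inside a group. In adult control 2, set against the mean of adult controls 1 and 3, 15 of the 16 members at or above the members' median of 56.2% GC had positive differences, against 6 of the 15 below it. In siRNA-labelled replicate 3, set against replicates 1 and 2, the same counts were 12 of 16 and 7 of 15. Spearman's rho with GC over the 31 genes was 0.66 and 0.45, beside 0.50 and 0.52 over 13589 genes with a mean of 1 CPM or more. In adult control 2, 21 of 31 members lay above 0, against 56.8% of those genes (median log2 difference 1.17, against 0.24). In siRNA-labelled replicate 3 it was 19 of 31, against 54.2% (0.40, against 0.11). These are descriptions over genes that share the same few libraries and depths. Both libraries carry the high Rn45s share that all 3 stroke libraries have, and adult control 2 is the one adult control to carry it.

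**Figure D5:**
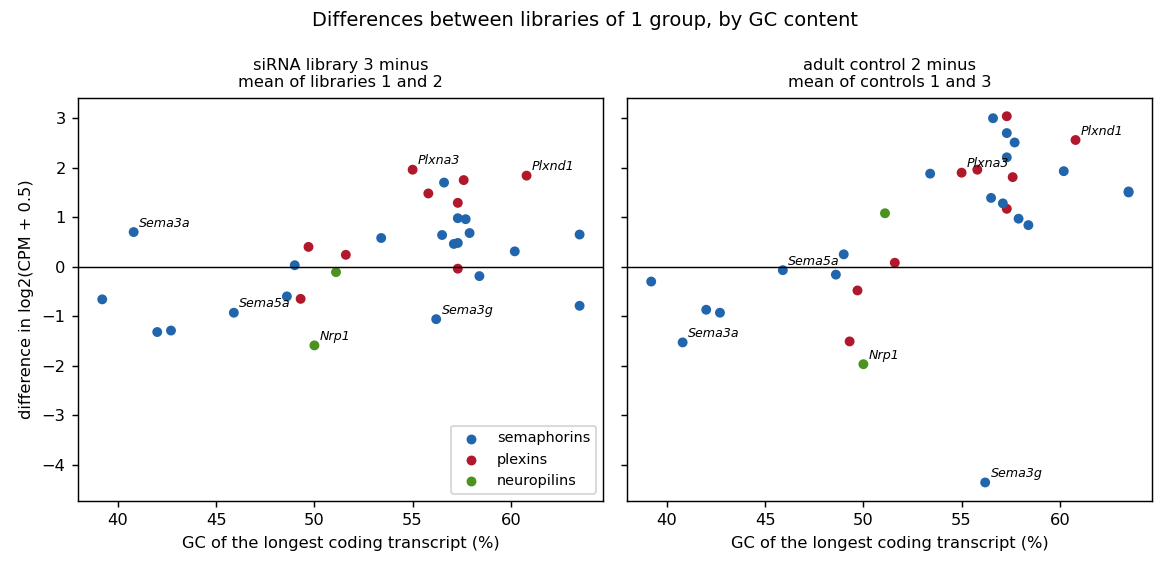
Difference of 1 library from its group mates (log2 CPM) against transcript GC percent for the 31 members: siRNA-labelled replicate 3 and adult control 2. In both, GC-rich members lie mostly above 0, as with 15 of the 16 upper members in adult control 2.

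A term for the Rn45s class was added to the fit after the data were seen. Every stroke library had a high Rn45s share and every P4 library a low one. The term was therefore set only by siRNA-labelled replicate 3 and adult control 2 against their group mates, and the values below rest on these libraries. With the term, Sema5a had a log2 fold change of 2.45 between stroke and adult control libraries (edgeR adjusted p = 0.236). Plxnb3 was at 0.82 (edgeR adjusted p = 0.823). With it Sema4a was at 1.47, Sema4g at 1.29, Sema5b at 1.06, Sema3c at -0.60 and Sema3g at -2.52, all nearer to 0 than without it. Between siRNA-labelled and stroke libraries the log2 fold change was 0.33 for Nrp1, -0.72 for Plxna3, -0.80 for Sema5b, -1.21 for Sema4a and -1.66 for Sema5a, of which Sema5a moved away from 0. Of the classes counted by sign in that comparison, Sema3c, Sema3e, Sema3g, Sema4c, Sema4g and Sema6b changed sign with the term. All 13 calls between P4 and adult controls passed with it, and Plxnb2 and Sema3g were added. Between stroke and P4, 9 of 15 calls passed, Plxnc1, Sema3c, Sema3f, Sema4d, Sema5b and Sema6c did not, and Plxna3, Plxnd1, Sema4g and Sema7a were added. The authors' deposited table, at a false discovery rate under 0.05, called Sema5a (log2 2.13, 0.00655) and Sema3g (log2 -9.48, 0.0246) between stroke and adult control, where it called 3.02% of its 23253 genes. In the authors' deposited table no member was called between siRNA-labelled and stroke libraries (0.159% of genes) or between siRNA-labelled and adult control libraries (0.839%). It called 16 members between P4 and adult control (15.4% of genes) and 17 between stroke and P4 (16.6%). These held all 13 and all 15 genes called here.

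Reads from overlapping genes could add to some members, since the strand setting of the counting is not given in the sources used here. Exons of Plxna1 overlap the antisense gene Gm26811 over 970 bases, or 10.7% of its exon length. Plxnb1 overlaps Gm7628 over 257 bases, and Plxna4 overlaps Plxna4os3 over 110 bases.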

How the data were processed

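Raw read counts per gene were used as deposited by the authors in 1 table of 23253 genes and 12 libraries. Per the submitters' processing notes, CASAVA 1.8.2, edgeR and genome build mm10 were used, and per the labels' protocols the Ovation RNA-seq System v2 made the libraries, which were read as 69 bp paired ends. What aligner, counter, annotation and strand setting were used is not stated there. The authors' deposited log2 fold changes and their p-values with false discovery rates were only set beside the results here. The column of P4 replicate 4 is headed P3 and was matched to the title with the same number, and 30 further columns of per-sample values were not used.

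Members and gene lists were chosen with earlier results of these data known. Genes were filtered by filterByExpr (17909 of 23253 kept) and tested with edgeR 4.0.16 under R 4.3.3 (TMM scaling, group means over all 12 libraries, 8 residual degrees of freedom, quasi-likelihood F test, 2-sided), with Benjamini-Hochberg adjustment over all tested genes and a threshold of 0.05. SE is the fold change over the square root of F. CPM uses TMM-scaled library sizes. Library totals of 10517638 to 48633350 counts set the precision, and counting intervals cover counting error only. Values per library are given for members called in any comparison or among the 5 smallest p of one. Alternatives were DESeq2 1.42.0, its size factors, no filter, fits of the groups compared alone, each library left out, a replicate block and a term for Rn45s of 1% or more. The code was tested on simulated data. Positions, exon lengths and GC came from GENCODE and promoters from RefSeq, both on GRCm38.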

Additional observations from a re-analysis of the deposited data

How the results depend on the processing

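Counts of members called moved by more than 1.5 times in few settings. Between stroke and adult control libraries the edgeR count of 0 became 5 with DESeq2, 1 (Sema5a) in a fit of those groups alone, and 0 to 5 when a library was left out, 5 without adult control 2. Between siRNA-labelled and stroke libraries the 0 became 1 (Sema5b) in the fit of those groups alone. Between P4 and adult controls the 13 became 8 in that fit, and 9 to 15 with a library left out, and between stroke and P4 the 15 became 11 to 15 with a library left out. Over all genes, stroke against adult control gave 126 calls, 1414 with DESeq2 (438 higher and 976 lower, against 87 and 39), 43 with those groups alone, 41 with the Rn45s class term, and 31 to 548 with a library left out: 35, 31 and 36 without stroke 4, 5 and 6, and 32 and 548 without adult control 1 and 2. Between siRNA-labelled and stroke libraries the 1 call became 0 with DESeq2's size factors, 2 without the filter, 203 with DESeq2, 88 with those groups alone, 0 with the class term, and 0 with any library left out. Between siRNA-labelled libraries and adult controls the 21 calls became 13 with DESeq2's size factors, 40 without the filter, 376 with DESeq2, 0 with those groups alone, 40 with the class term and 5 to 25 with a library left out (9, 5 and 7 without siRNA-labelled 1, 2 and 3, and 6 without adult control 1). P4 against adult control gave 3001, 4677 with DESeq2, 1639 with those groups alone, and 1852 to 3099 with a library left out (1852 and 1970 without P4 4 and 5). Stroke against P4 gave 3359, and 2049 with the class term. The cause was not tested.

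Replicate numbers are shared by siRNA-labelled and adult control libraries (1 to 3) and by stroke and P4 libraries (4 to 6). Same-numbered deviations correlated at 0.064, -0.191 and -0.336 in the first and 0.160, 0.014 and 0.153 in the second. Those with different numbers ran from -0.317 to 0.481 in the first and from -0.175 to 0.151 in the second. The numbers were not taken as pairs, because the labels do not say that a number marks a shared animal, litter or day. With a replicate block, siRNA-labelled against adult control gave 0 members and 11 genes, and stroke against P4 gave 13 members and 2463 genes. Of the single values of members called or among the 5 smallest p of a comparison, 436 kept direction and side of the threshold, 48 lost a call, 8 gained one and none of them turned sign. The low counts of Sema3f and Sema3g (0 to 12 and 0 to 40.0 CPM per library) leave their fold changes with the widest SE of the members.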
